A study of Homo sapiens with 8 samples.

Results

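HOXA3, HOXA4, HOXA5, HOXA6, HOXA7, HOXA9, HOXA10, MEIS1 and PBX3 were followed through 8 poly(A) RNA libraries of NOMO-1 and MOLM-13, human cell lines from acute myeloid leukaemias. The 9 genes were picked by name from the 26830 gene symbols of the deposited table, and all 9 passed the filter on low values (at least 1 TPM in at least 2 libraries), which 14302 genes passed. Each line carried a lentiviral short hairpin RNA, either non-targeting (shNS) or against ALKBH5 (shALKBH5), so all cells compared had been infected and selected with puromycin. The groups were NOMO-1 shNS (replicates 1 and 3), NOMO-1 shALKBH5 (replicates 2 and 3), MOLM-13 shNS (replicates 1 and 3) and MOLM-13 shALKBH5 (replicates 1 and 3), with n = 2 libraries in each group throughout. 1 hairpin against ALKBH5 was used, so no second hairpin checks its effects. The labels differ on the selection, with 4 days in one text and 1 week in another, and the sample protocols also mention virus against FTO and drugs that no sample label lists. No label gives separate cultures for the libraries of a group, so the p-values measure spread that may be technical.

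HOX proteins are homeodomain transcription factors encoded in 4 clusters, and the HOXA genes are active in blood stem and progenitor cells and are switched down as the cells mature. PBX3 and MEIS1 are homeodomain proteins of the TALE class that bind DNA together with HOX proteins: PBX proteins pair with HOX proteins, and MEIS1 binds PBX and also HOXA9. Both lines carry a fusion of KMT2A (MLL) with MLLT3, and in leukaemias with KMT2A fusions HOXA9, HOXA10, MEIS1 and PBX3 are kept high and are needed for growth. ALKBH5 removes the m6A methyl mark from adenosines of RNA.

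The 7 HOXA genes lie on the minus strand of chromosome 7 (GRCh38, GENCODE release 29). In order of position they are HOXA3 (27106184 to 27152581), HOXA4 (27128507 to 27130799), HOXA5 (27141052 to 27143668), HOXA6 (27145396 to 27150603), HOXA7 (27153716 to 27157936), HOXA9 (27162435 to 27175180) and HOXA10 (27170591 to 27180261). MEIS1 lies on the plus strand of chromosome 2 (66433452 to 66573869) and PBX3 on the plus strand of chromosome 9 (125747345 to 125967377). The annotated gene models overlap: HOXA7 shares 62.5% of its exonic bases and HOXA6 39.3% with HOXA-AS3, an RNA from the opposite strand, HOXA10 shares 16.4% and HOXA9 13.9% with HOXA10-AS, and HOXA4 shares 14.5% with HOXA-AS2. The strand setting of the counting is not given in the sources used here, so reads of a gene and its antisense partner cannot be told apart. Models on the same strand overlap too, which no strand setting would resolve. HOXA4 shares 31.0% of its exonic bases with AC004080.6, and HOXA9 shares 13.1% and HOXA10 9.93% with AC004080.3. Neither of these partners is in the deposited table. HOXA-AS3 itself stood between 0.33 and 1.77 TPM in the 8 libraries.

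Start-site sequences are shown for HOXA6, which moved in NOMO-1, and for HOXA9, MEIS1 and PBX3, which moved in MOLM-13. They are the 250 bases before an annotated start, from RefSeq (GRCh38.p14), 5′ to 3′ on the strand of the gene. 8 of the 9 genes had an entry, HOXA5 being the exception, with 15 windows between them. The HOXA6 window (chr7:27147775-27148024, minus strand) lies in introns of HOXA3 and HOXA6 models, the HOXA9 window (chr7:27165538-27165787, minus strand) in an intron of the longer HOXA9 model, the MEIS1 window (chr2:66434875-66435124, plus strand) inside the MEIS1 gene outside its exons, and the PBX3 window (chr9:125747933-125748182, plus strand) inside PBX3 with 1 base in an exon. Capitals mark the matches to 3 motifs searched on both strands.
HOXA6: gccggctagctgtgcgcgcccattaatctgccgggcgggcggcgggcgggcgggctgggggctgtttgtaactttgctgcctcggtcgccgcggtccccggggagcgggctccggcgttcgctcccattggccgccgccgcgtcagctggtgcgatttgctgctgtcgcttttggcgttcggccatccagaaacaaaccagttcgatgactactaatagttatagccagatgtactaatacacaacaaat
HOXA9: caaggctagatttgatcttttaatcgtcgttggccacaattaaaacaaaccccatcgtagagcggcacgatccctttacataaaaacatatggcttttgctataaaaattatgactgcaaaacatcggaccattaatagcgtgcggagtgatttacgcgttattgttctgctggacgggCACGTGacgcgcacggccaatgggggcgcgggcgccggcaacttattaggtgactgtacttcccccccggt
MEIS1: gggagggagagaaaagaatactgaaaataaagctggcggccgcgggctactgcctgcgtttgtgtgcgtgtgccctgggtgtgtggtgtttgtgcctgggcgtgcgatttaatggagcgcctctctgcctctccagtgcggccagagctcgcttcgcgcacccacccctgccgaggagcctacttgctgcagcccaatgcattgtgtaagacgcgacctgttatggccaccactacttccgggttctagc
PBX3: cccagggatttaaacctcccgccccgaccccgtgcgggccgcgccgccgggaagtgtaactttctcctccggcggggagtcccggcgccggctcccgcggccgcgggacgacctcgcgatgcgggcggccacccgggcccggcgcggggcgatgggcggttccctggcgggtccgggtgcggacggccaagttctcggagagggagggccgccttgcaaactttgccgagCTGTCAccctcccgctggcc
The motifs were CACGTG, the E-box that reads alike on both strands, TGATTNAT with its complement ATNAATCA, the joint PBX and HOX site, and TGACAG with its complement CTGTCA, the core bound by MEIS proteins. Of 35116 windows of 250 bases before annotated starts, 6.34% held the E-box, 2.48% the joint site and 13% the MEIS core. The HOXA9 window held an E-box 71 bases before the start, and the PBX3 window held CTGTCA 20 bases before it. The HOXA4 window, not printed, held an E-box and TGACAG, and 1 of the HOXA3 windows held an E-box. No window of these genes held the joint PBX and HOX letters. These matches are descriptions of the letters, not evidence of binding.

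The depth of the libraries is unknown, because TPM (a length-scaled share of the transcripts of each library) keeps no depth. Over genes of at least 10 TPM, the log2 values of paired libraries differed with an SD of 0.119 (NOMO-1 shNS), 0.162 (MOLM-13 shNS), 0.177 (NOMO-1 shALKBH5) and 0.598 (MOLM-13 shALKBH5), so the last pair stood furthest apart. In MOLM-13 shALKBH5 replicate 3, 12 of the 19 HOXB and HOXD genes in the table were above 0 (at most 0.44 TPM) against at most 3 in any other library, and HBB, the adult beta globin, stood at 14.0 TPM there and at 0 in the other 7 libraries. HBA1 and HBG1, other globin genes, were listed at 0 in every library, as were PF4 of megakaryocytes, MS4A1 of B cells and EPCAM of epithelia. 8 of 10 myeloid markers were at 1 TPM or more in every library, the exceptions being MPO, under 1 TPM in NOMO-1, and CD14, under 1 TPM in NOMO-1 and at 0.98 TPM in MOLM-13 shALKBH5 replicate 3 against 16.3 TPM in replicate 1. The summed myeloid markers ranged from 1114 to 1152 TPM in NOMO-1 shNS, from 2128 to 2134 in NOMO-1 shALKBH5, from 9824 to 10368 in MOLM-13 shNS and from 12956.5 to 20351 in MOLM-13 shALKBH5. The higher sums after knockdown came with LYZ, which went from 463.4 and 499.9 to 1532 and 1507 TPM in NOMO-1 and from 9126 and 8493 to 19263 and 12121 TPM in MOLM-13. CSF1R was also higher in both knockdown libraries of each line, as were SPI1, CD33 and CEBPA in MOLM-13 and PTPRC in NOMO-1. Other markers were lower after knockdown, in MOLM-13 MPO (384.0 and 456.5 to 19.3 and 16.4 TPM), PTPRC, ITGAM and FCGR1A. In NOMO-1, CD33, CEBPA, SPI1 and FCGR1A were lower, as was CD14, and MPO was higher, both under 1 TPM there. The part of these markers in the results was not tested. In such bulk RNA, fewer cells of a type and less RNA per cell cannot be told apart.

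ALKBH5, the targeted gene, was measured at 15.1 and 14.2 TPM in the NOMO-1 knockdown libraries against 70.4 and 71.8 TPM in their controls, which is 4.86 times lower. In MOLM-13 it went from 45.7 and 45.8 TPM to 9.45 and 7.35 TPM, 5.45 times lower. Its log2 change, with the SE, was -2.21 ± 0.13 in NOMO-1 (limma, adjusted p = 0.00032) and -2.32 ± 0.13 in MOLM-13 (adjusted p = 0.00019). The groups did not overlap in either line.

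Among the 9 genes, HOXA10 and HOXA9 had the highest levels per transcript length in NOMO-1 shNS, followed by MEIS1. HOXA10 stood at 177.0 and 181.4 TPM, HOXA9 at 150.1 and 157.1, MEIS1 at 57.8 and 58.6, and PBX3 at 19.7 and 17.6. Below them came HOXA5 with 13.2 and 15.3 TPM, then HOXA6 (7.71 and 8.29), HOXA3 (7.85 and 6.77) and HOXA7 (6.72 and 6.78), and last HOXA4 (3.10 and 2.90). The ranges of HOXA6 and HOXA3 overlapped, as did those of HOXA3 and HOXA7, so these neighbours did not differ beyond their spread. HOXA9 and HOXA10 together made up 89.4% of the summed TPM of the 7 HOXA genes in both libraries.

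In MOLM-13 shNS the order was different, with HOXA9 first at 96.9 and 94.7 TPM, above HOXA10 at 46.1 and 46.6 TPM. PBX3 stood at 45.9 and 45.8 TPM, just under HOXA10 and above MEIS1 (13.6 and 13.3). HOXA7 (9.0 and 9.76) and HOXA5 (8.97 and 9.63) overlapped, and HOXA3 (5.33 and 4.5), HOXA6 (4.32 and 3.80) and HOXA4 (2.18 and 1.55) followed without overlap. The ratio of HOXA9 to HOXA10 TPM was 2.10 and 2.03 in the MOLM-13 controls, against 0.848 and 0.866 in the NOMO-1 controls. The ratio of HOXA9 to MEIS1 was 7.15 and 7.13 against 2.60 and 2.68.

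**Figure D1:**
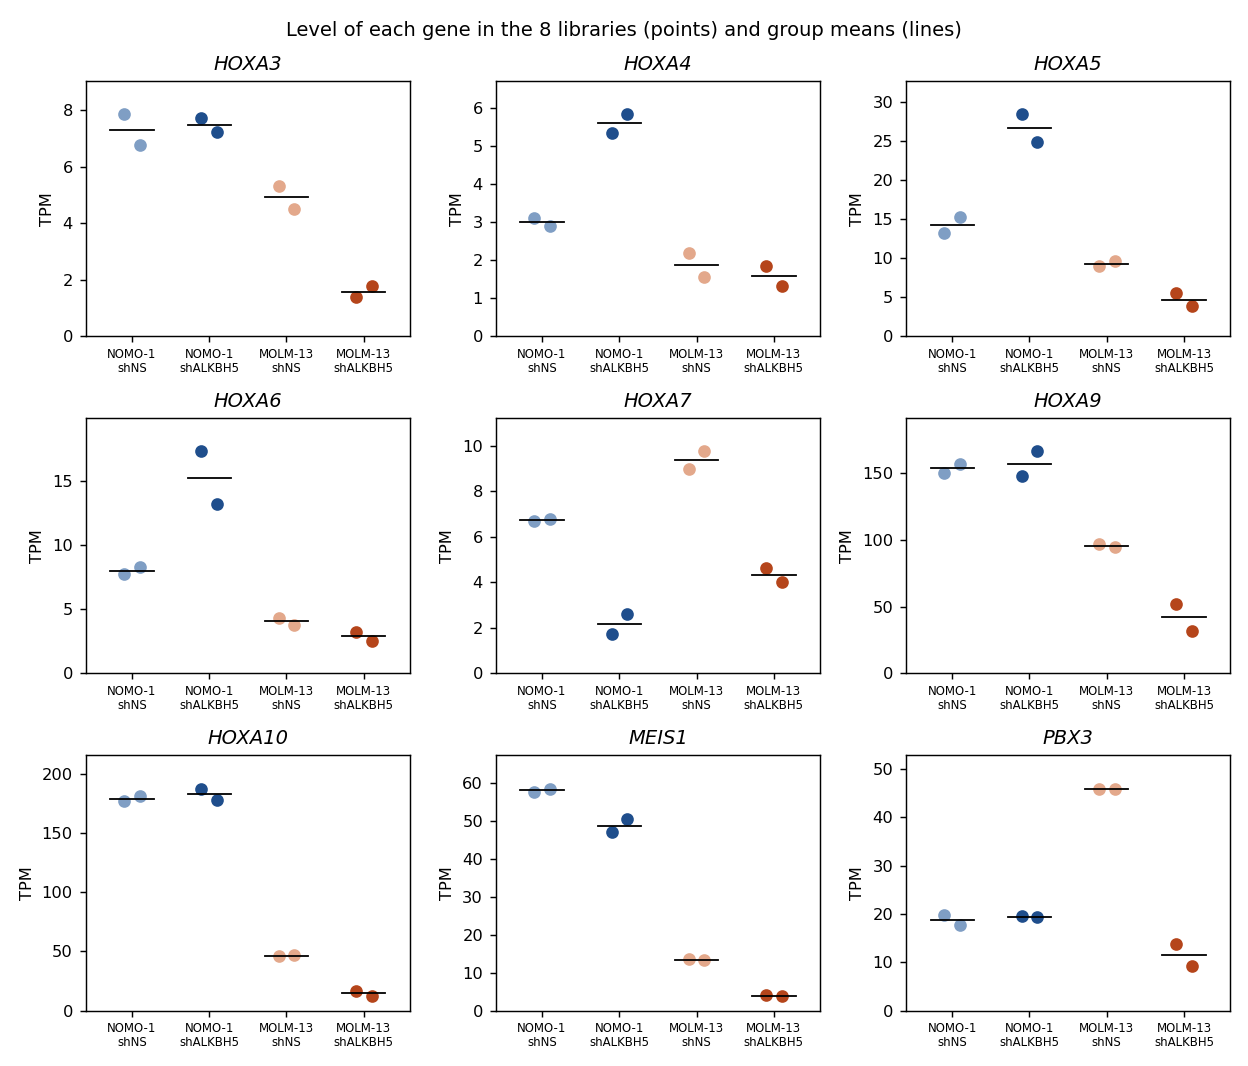
Level in TPM (y axis from 0, a scale of its own for each gene) in the 4 groups (x axis); each point is 1 library and each line the mean of the 2 libraries of a group. HOXA4, HOXA5 and HOXA6 were higher after knockdown in NOMO-1, HOXA7 was lower after knockdown in both lines, and HOXA9, HOXA10, MEIS1 and PBX3 show their drop in MOLM-13.

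Set against each other, the control libraries differed for 8 of the 9 genes, 7 of them higher in NOMO-1 and 1 lower. Of all genes tested, 59.8% were called (limma, adjusted p under 0.05), 40.6% higher and 19.2% lower in the NOMO-1 controls. The groups did not overlap for any of the 9 genes, 7 higher and 2 lower, against 57.9% of all genes higher and 31.6% lower without overlap. MEIS1 was 4.34 times higher in NOMO-1 (log2 2.04 ± 0.09 SE, adjusted p = 9.7e-06) and HOXA10 3.87 times higher (log2 1.93 ± 0.14, adjusted p = 5.8e-05). PBX3 was 2.45 times lower in NOMO-1 (log2 -1.25 ± 0.18, adjusted p = 0.0013). HOXA6 was 1.97 times higher, HOXA4 1.61, HOXA9 1.60, HOXA5 1.53 and HOXA3 1.49 times, with adjusted p from 0.0054 to 0.036. HOXA7 was the other gene lower in NOMO-1, 1.39 times, and did not pass (adjusted p = 0.055). Without NOMO-1 shNS replicate 1 or MOLM-13 shNS replicate 3 the count of 8 fell to 4, and without NOMO-1 shNS replicate 3 to 5. MEIS1, HOXA10, HOXA6 and PBX3 passed under each of the 15 alternatives run for this comparison. After median-of-ratios scaling, described with the knockdown values, HOXA3 (adjusted p = 0.32), HOXA4 (0.12) and HOXA5 (0.071) no longer passed and HOXA7 did (log2 -0.69, adjusted p = 0.0049).

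Knockdown of ALKBH5 moved the genes of this set in NOMO-1 in a mixed way: HOXA4, HOXA5 and HOXA6 rose, HOXA7 fell, and HOXA3, HOXA9, HOXA10, MEIS1 and PBX3 did not pass the test. HOXA5 went from 13.2 and 15.3 TPM in the controls to 28.4 and 24.9 TPM, 1.87 times higher (log2 0.86 ± 0.17 SE, limma, adjusted p = 0.0081). HOXA6 went from 7.71 and 8.29 to 17.3 and 13.2 TPM, 1.90 times higher (log2 0.84 ± 0.17, adjusted p = 0.0085). HOXA4, next to them on the chromosome, went from 3.10 and 2.90 to 5.35 and 5.83 TPM, 1.86 times higher (log2 0.72 ± 0.16, adjusted p = 0.013). Both knockdown libraries were above both controls for each of these 3 genes. The overlapping gene models noted above touch HOXA4 and HOXA6, whose values are therefore less certain than that of HOXA5.

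HOXA7 went the other way in the same libraries, from 6.72 and 6.78 TPM to 1.74 and 2.60 TPM, 3.11 times lower (log2 -1.30 ± 0.15 SE, limma, adjusted p = 0.0014). It lies between HOXA6 and HOXA9, and 3.25% of the genes tested had a lower log2 change. Its call held under each of the 16 alternatives run for this comparison, with adjusted p up to 0.016. Since HOXA7 shares most of its exonic bases with HOXA-AS3, its level also depends on how reads were assigned between them.

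HOXA9 did not pass in NOMO-1, at 148.2 and 166.4 TPM after knockdown against 150.1 and 157.1 before it (log2 0.03 ± 0.21 SE, adjusted p = 0.94). HOXA10 stood at 187.6 and 178.0 TPM against 177.0 and 181.4 (log2 0.03 ± 0.14, adjusted p = 0.91). For both genes the groups overlapped. HOXA3, at 7.73 and 7.23 TPM, and PBX3, at 19.6 and 19.3 TPM, likewise overlapped their controls. MEIS1 stood at 47.1 and 50.5 TPM against 57.8 and 58.6 in the controls, 1.19 times lower with no overlap, and missed the threshold (log2 -0.25 ± 0.09, adjusted p = 0.074). With NOMO-1 fitted alone MEIS1 passed (adjusted p = 0.018), as it did under 5 other alternatives.

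Of the 9 genes, 3 were called higher and 1 lower in NOMO-1, while 43.6% of all genes tested were called, 28.6% higher and 15% lower. The groups did not overlap for 3 genes that were higher and 2 that were lower, against 52.1% and 30.5% of all genes. The median log2 change was 0.03 for the 9 genes and 0.16 for all genes tested. Without NOMO-1 shNS replicate 1, or without NOMO-1 shALKBH5 replicate 2, HOXA7 was the single gene of the 9 still called, since HOXA5 (adjusted p = 0.063 in both cases), HOXA6 (0.061 and 0.055) and HOXA4 (0.059 and 0.055) missed the threshold. The call of HOXA4 also ended without either of the other NOMO-1 libraries.

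Because the TPM medians of the libraries differed, the values were also scaled by the median of ratios. That scaling moved the median log2 change of all genes by -0.16 in NOMO-1, 0.21 in MOLM-13, -0.43 in the difference of the lines and -0.26 between the controls. The share of calls that were higher went from 65.6% to 47.7% in NOMO-1, from 25.3% to 47.8% in MOLM-13, from 85.8% to 52.0% in the difference and from 67.9% to 52.2% between the controls. In NOMO-1 the scaled log2 changes were 0.64 for HOXA5, 0.63 for HOXA6, 0.52 for HOXA4 and -1.41 for HOXA7, all still past the threshold. MEIS1 then passed too (log2 -0.46, adjusted p = 0.0055), and HOXA10 turned from 0.03 to -0.19 and passed (adjusted p = 0.039). HOXA3, HOXA9 and PBX3 also changed sign under this scaling and passed under neither.

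**Figure D2:**
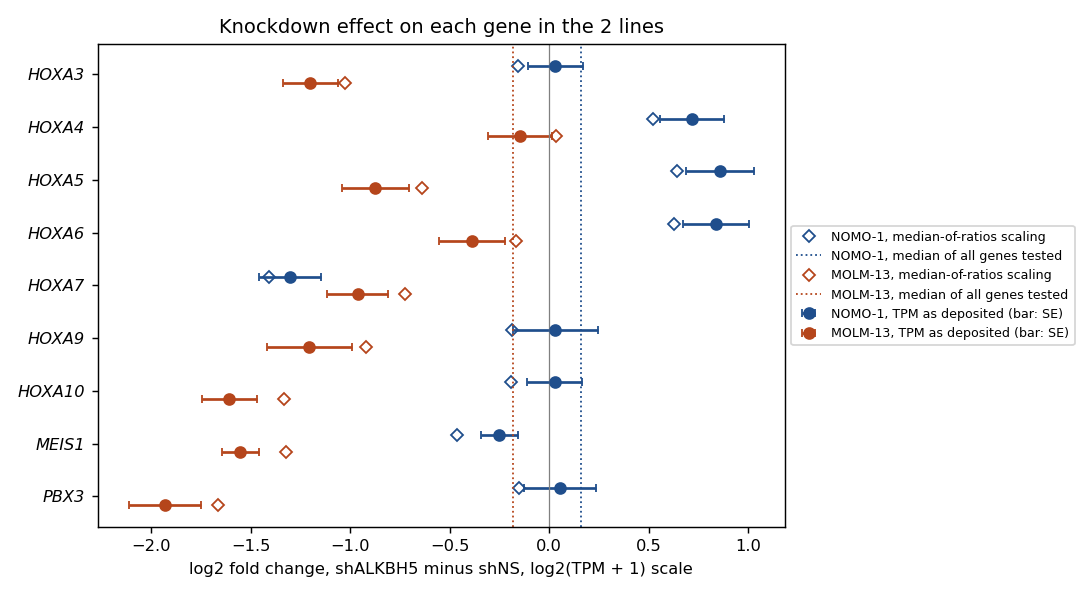
Log2 fold change, shALKBH5 minus shNS (x axis), of each gene (y axis) in NOMO-1 and MOLM-13; filled points are values from TPM as deposited with the SE as a bar, open diamonds the values after median-of-ratios scaling, and dotted lines the median of all genes tested. In NOMO-1, HOXA3, HOXA9, HOXA10 and PBX3 sit near 0 and change sign with the scaling, and in MOLM-13 HOXA4 does (-0.15 and 0.04), while PBX3 (-1.93), HOXA10 (-1.61) and MEIS1 (-1.55) are the lowest points as deposited.

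In MOLM-13 the same knockdown lowered 7 of the 9 genes, with the falls of PBX3, MEIS1, HOXA10 and HOXA3 each above 3 times. PBX3 went from 45.9 and 45.8 TPM in the controls to 13.9 and 9.16 TPM, 3.98 times lower (log2 -1.93 ± 0.18 SE, limma, adjusted p = 0.00077). MEIS1 went from 13.6 and 13.3 to 4.09 and 3.74 TPM, 3.43 times lower (log2 -1.55 ± 0.09, adjusted p = 0.00024). Both cofactors were thus lower in each knockdown library than in each control, and the MEIS1 values lay close together within each group.

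HOXA10 went from 46.1 and 46.6 to 16.8 and 12.6 TPM, 3.16 times lower (log2 -1.61 ± 0.14 SE, limma, adjusted p = 0.00056). HOXA9 went from 96.9 and 94.7 to 52.1 and 32.1 TPM, 2.27 times lower (log2 -1.21 ± 0.21, adjusted p = 0.0064). HOXA9 remained the most abundant of the 9 transcripts in MOLM-13 after knockdown. The summed TPM of the 7 HOXA genes went from 172.7 and 170.5 in the controls to 85.5 and 58.2, whereas in NOMO-1 the controls summed to 365.8 and 378.5 and the knockdown libraries to 396.3 and 398.1.

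Of the genes towards the 3′ end of the cluster, HOXA3 fell 3.12 times, from 5.33 and 4.5 to 1.38 and 1.77 TPM (log2 -1.20 ± 0.14 SE, limma, adjusted p = 0.0015). HOXA5 fell 1.99 times, from 8.97 and 9.63 to 5.51 and 3.85 TPM (log2 -0.87 ± 0.17, adjusted p = 0.0086). HOXA7 fell 2.17 times, from 9.0 and 9.76 to 4.63 and 4.03 TPM (log2 -0.96 ± 0.15, adjusted p = 0.0045). HOXA7 was thus the single gene of the 9 that was called in the same direction in both lines from TPM as deposited. After median-of-ratios scaling, MEIS1 (log2 -0.46 in NOMO-1 and -1.32 in MOLM-13) and HOXA10 (-0.19 and -1.33) were also called lower in both. HOXA6, at 3.26 and 2.51 TPM against 4.32 and 3.80, did not overlap its controls but missed the threshold (1.41 times lower, adjusted p = 0.11). HOXA4, at 1.85 and 1.32 TPM against 2.18 and 1.55, overlapped its controls (adjusted p = 0.50).

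None of the 9 genes was called higher in MOLM-13 by limma, nor at an unadjusted p under 0.05, where the 7 lower genes also stood. Of all genes tested, 41.8% were called, 31.2% lower and 10.6% higher. The groups did not overlap for 8 of the 9 genes, all lower, against 46.2% of all genes lower and 21.3% higher without overlap. The median log2 change was -1.20 for the 9 genes and -0.18 for all genes tested, and 2.24% of the genes tested had a lower value than PBX3, 3.92% than HOXA10 and 4.27% than MEIS1. After median-of-ratios scaling the same 7 genes passed, with log2 changes from -1.66 (PBX3) to -0.64 (HOXA5).

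The MOLM-13 knockdown libraries stood apart from each other for these genes as well. Relative to the mean of the controls, the log2 differences in replicates 1 and 3 were -0.87 and -1.55 for HOXA9, -1.41 and -1.80 for HOXA10, -0.66 and -1.09 for HOXA5, and -1.50 and -1.60 for MEIS1. The median over the 9 genes was -0.88 in replicate 1 and -1.09 in replicate 3, and over all genes tested -0.06 and -0.33. Replicate 3, the library with HBB, was lower than replicate 1 for 8 of the 9 genes, HOXA3 being the exception. Without replicate 3 the count of called genes was 7, and without replicate 1 it was 8. With MOLM-13 fitted alone the calls of HOXA5 (adjusted p = 0.084) and HOXA9 (0.074) ended. With a library weight for each group those of HOXA3 (0.056), HOXA5 (0.10) and HOXA7 (0.12) ended, leaving 4.

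**Figure D3:**
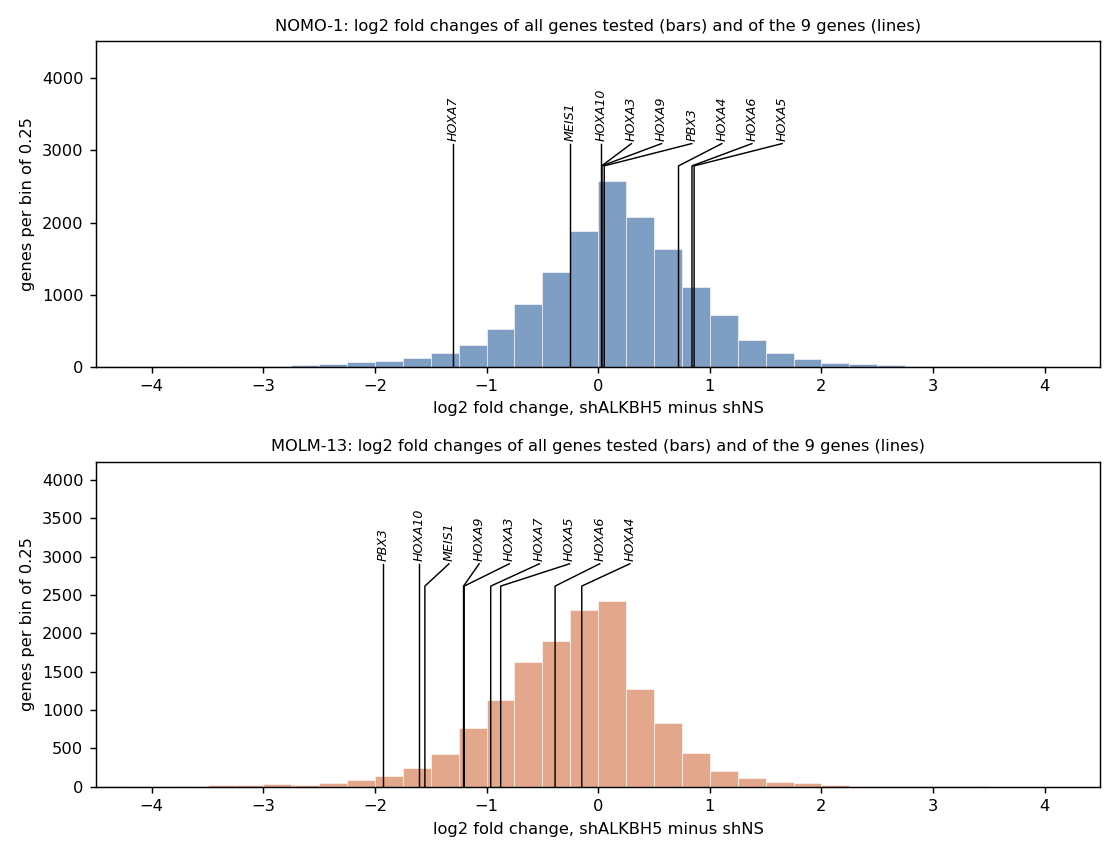
Number of genes tested (y axis) per bin of 0.25 in log2 fold change (x axis), shALKBH5 minus shNS, for NOMO-1 (upper panel) and MOLM-13 (lower panel), with a line at the value of each of the 9 genes. In MOLM-13 all 9 lines lie below 0 as deposited, HOXA4 lying above 0 after median-of-ratios scaling, and in NOMO-1 they run from HOXA7 at -1.30 to HOXA5 at 0.86.

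Whether the lines responded differently was tested directly, as the NOMO-1 effect minus the MOLM-13 effect. The difference was positive and passed for 8 of the 9 genes, HOXA7 being the exception, while 34.6% of all genes tested were called, 29.7% higher and 4.9% lower. It was 1.98 ± 0.26 (SE) on the log2 scale for PBX3 (limma, adjusted p = 0.0045), 1.73 ± 0.24 for HOXA5 (0.0051), 1.63 ± 0.19 for HOXA10 (0.0036) and 1.30 ± 0.13 for MEIS1 (0.0026). These 4 passed under all 15 alternatives run. The difference was 1.24 ± 0.30 for HOXA9 (0.025), 1.23 ± 0.20 for HOXA3 (0.0074), 1.23 ± 0.24 for HOXA6 (0.012) and 0.87 ± 0.23 for HOXA4 (0.030). The estimate for HOXA9 missed the threshold without any 1 NOMO-1 library or any 1 MOLM-13 control (adjusted p from 0.067 to 0.092), and that for HOXA4 passed in 4 of the 15. The count of 8 fell to 5 with a library weight for each group and without NOMO-1 shNS replicate 1, NOMO-1 shNS replicate 3 or MOLM-13 shNS replicate 1.

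The direction of the difference for HOXA7 was negative (log2 -0.34 ± 0.22 SE, limma, adjusted p = 0.26), and it passed after median-of-ratios scaling (-0.68, adjusted p = 0.039) and after quantile scaling (-0.83, adjusted p = 0.024). The median difference was 1.24 for the 9 genes and 0.42 for all genes tested. HOXA5 was the gene of the 9 that passed in opposite directions in the lines, higher in NOMO-1 and lower in MOLM-13. The order of levels after knockdown reflects these values: in NOMO-1 HOXA5 stood above PBX3 and HOXA7 was the lowest of the 9, with no overlap between neighbours. In MOLM-13 HOXA10 and PBX3 overlapped, and HOXA5, HOXA7 and MEIS1 overlapped.

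Ratios of transcripts within a library are the same whatever factor scales that library. The ratio of HOXA9 to HOXA10 TPM was 0.790 and 0.935 after knockdown in NOMO-1, a range that holds both control values. In MOLM-13 it was 3.10 and 2.55 after knockdown, above the 2.10 and 2.03 of the controls. The ratio of HOXA9 to MEIS1 was above its controls in both lines, at 3.14 and 3.30 in NOMO-1 and at 12.7 and 8.59 in MOLM-13. HOXA9 and HOXA10 made up 84.7% and 86.5% of the HOXA sum after knockdown in NOMO-1, below the controls. In MOLM-13 they made up 80.5% and 76.8% after knockdown, also below the 82.7% and 82.9% of the controls.

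Other transcripts of the HOXA locus were read from a list of 15 neighbours, of which 12 were tested. In NOMO-1 4 rose and none fell, beside 28.6% of all genes tested called higher and 15% lower. In MOLM-13 1 rose and 5 fell, beside 10.6% higher and 31.2% lower. With MOLM-13 fitted alone, none of the list rose and 1 fell. At an unadjusted p under 0.05 in limma none fell in NOMO-1 either, whereas after median-of-ratios scaling 2 fell there. The median log2 change was 0.34 in NOMO-1 and -0.19 in MOLM-13. HOXA11-AS, an RNA antisense to HOXA11, went from 31.6 and 35.2 TPM to 88.6 and 87.3 TPM in NOMO-1, 2.63 times higher (log2 1.37 ± 0.11 SE, limma, adjusted p = 0.00048). HOXA11 itself did not pass there, at 45.3 and 50.1 TPM against 39.9 and 43.5, so the ratio of HOXA11-AS to HOXA11 went from 0.790 and 0.809 to 1.96 and 1.74. HOTAIRM1, a non-coding RNA of the locus, was the neighbour that rose in both lines: from 4.46 and 4.73 to 14.2 and 12.8 TPM in NOMO-1 (log2 1.37 ± 0.17, adjusted p = 0.0015), and from 5.57 and 5.59 to 11.4 and 7.87 TPM in MOLM-13 (adjusted p = 0.021).

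HOXA13, at the 5′ end of the cluster, stood at 67.0 and 76.3 TPM against 75.3 and 74.2 in NOMO-1 (adjusted p = 0.67). In MOLM-13 HOXA13 fell from 32.8 and 30.1 to 11.6 and 11.7 TPM (log2 -1.36 ± 0.10 SE, limma, adjusted p = 0.00039). HOXA11 fell in MOLM-13 too, from 14.2 and 16.2 to 9.02 and 7.07 TPM (adjusted p = 0.0053). The read-through row HOXA10-HOXA9 was listed at 1.14 TPM in NOMO-1 shALKBH5 replicate 2 and at 0 in the other 7 libraries.

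**Figure D4:**
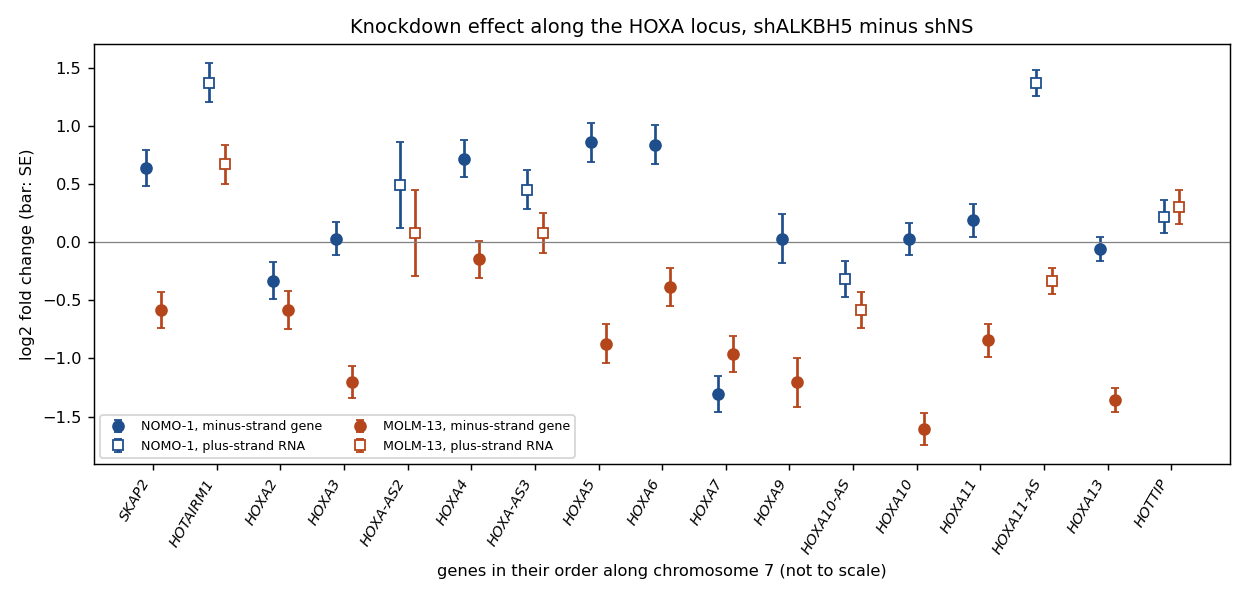
Log2 fold change, shALKBH5 minus shNS, with its SE (y axis) for named genes of the HOXA locus in their order along chromosome 7 (x axis, not to scale), in NOMO-1 and MOLM-13 as deposited; circles are genes of the minus strand and squares RNAs of the plus strand. HOTAIRM1 and HOXA11-AS are the highest NOMO-1 points (both 1.37) and HOXA7 the lowest (-1.30), and HOXA10 (-1.61) and HOXA13 (-1.36) are the lowest MOLM-13 points.

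Other TALE homeobox genes and PBX partners gave a list of 10, with 8 tested. In NOMO-1 3 rose and 1 fell, beside 28.6% of all genes tested higher and 15% lower. In MOLM-13 none rose and 1 fell, beside 10.6% higher and 31.2% lower, with 1 higher at an unadjusted p under 0.05 in limma. The median log2 change was 0.06 in NOMO-1 and -0.23 in MOLM-13. With MOLM-13 fitted alone, none of the list passed. PBXIP1, which encodes a protein that binds PBX proteins, went from 34.1 and 37.1 to 66.9 and 70.8 TPM in NOMO-1 (log2 0.93, adjusted p = 0.00084), and MEIS3, a relative of MEIS1, from 1.71 and 3.07 to 15.9 and 11.9 TPM (log2 2.15, adjusted p = 0.00092). TGIF2, a TALE repressor, fell in NOMO-1 (log2 -1.25, adjusted p = 0.0051) and did not pass in MOLM-13 (-0.34, 0.25). MEIS2 was listed at 0 in all 4 NOMO-1 libraries, and in MOLM-13 it fell beside MEIS1, from 30.9 and 31.2 to 14.3 and 7.79 TPM (log2 -1.47 ± 0.25 SE, adjusted p = 0.0052). PBXIP1 (log2 0.28, adjusted p = 0.052) and PKNOX1 (log2 -0.36, adjusted p = 0.10), the next by p in MOLM-13, did not pass from TPM as deposited. After median-of-ratios scaling PBXIP1 was called higher in MOLM-13 (limma, log2 0.57, adjusted p = 0.0083) as well as in NOMO-1 (log2 0.72, adjusted p = 0.0032).

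Genes linked to HOXA9 and MEIS1 in leukaemia formed a list of 20, with 17 tested. In NOMO-1 2 rose and 7 fell, beside 28.6% of all genes tested higher and 15% lower. In MOLM-13 none rose and 11 fell, beside 10.6% higher and 31.2% lower. None was higher in MOLM-13 at an unadjusted p under 0.05 in limma, while 1 was called higher after median-of-ratios scaling. The median log2 change was -0.31 in NOMO-1 and -0.71 in MOLM-13. BCL2, a survival protein, fell in both lines (log2 -2.29, adjusted p = 0.00037 in NOMO-1, and -2.22, adjusted p = 0.00034 in MOLM-13), as did CDK6, a cell cycle kinase (-1.01, 0.0010, and -2.12, 0.00018). MYC, a transcription factor of cell growth, was called lower in both lines from TPM as deposited (log2 -2.45, adjusted p = 0.00053 in NOMO-1, and -0.71, 0.034 in MOLM-13). After median-of-ratios scaling the MOLM-13 call of MYC ended (limma, log2 -0.41, adjusted p = 0.25). MEF2C, a transcription factor of progenitor cells, fell in both lines (-0.80, 0.020, and -2.99, 0.00030). FLT3, a receptor tyrosine kinase, stood at 237.5 and 229.2 TPM in the MOLM-13 controls and at 98.3 and 39.1 TPM after knockdown, and at 0.55 TPM or less in every NOMO-1 library. With MOLM-13 fitted alone 5 of the list fell in place of 11.

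Regulators of HOXA transcription, also a list of 20, had 18 tested. In NOMO-1 1 rose and 6 fell, and 13 fell after median-of-ratios scaling. In MOLM-13 12 fell and none rose, also none at an unadjusted p under 0.05 in limma, while 1 was called higher after median-of-ratios scaling. Of all genes tested, 28.6% were called higher and 15% lower in NOMO-1, and 10.6% higher and 31.2% lower in MOLM-13. The median log2 change of the list was -0.29 in NOMO-1 and -0.79 in MOLM-13. MLLT3, the partner in the fusion of these lines, fell in both lines (log2 -0.96, adjusted p = 0.0017 in NOMO-1, and -1.13, 0.0011 in MOLM-13). PSIP1, a chromatin protein that tethers KMT2A complexes, fell in both (-1.18, 0.0024, and -2.21, 0.00039), as did HMGN1, a nucleosome-binding protein (-0.82, 0.0077, and -0.92, 0.0059). KMT2A fell in both lines as well (-0.46, 0.012, and -1.04, 0.00080). BMI1, a Polycomb protein, fell in MOLM-13 (-2.04, 0.00064) and did not pass in NOMO-1 (-0.14, 0.58). With MOLM-13 fitted alone 7 of the list fell.

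Genes with a pattern most like that of HOXA9 and of MEIS1 were sought among 9033 genes with a control mean of at least 5 TPM in both lines. The measure was the root mean square distance between the log2 differences from the control mean of the line in the 4 knockdown libraries. The nearest to HOXA9 were IFT81 (0.049), SEC23IP (0.052), AGGF1 (0.054), PAFAH1B1 (0.067) and SLF2 (0.071). The nearest to MEIS1 were BTRC (0.073), ZNF569 (0.080), SCMH1 (0.086), PCM1 (0.094) and DNAJC1 (0.097). Of the 9 genes, HOXA5, HOXA7, HOXA9, HOXA10, MEIS1 and PBX3 had that level, and the other 3 were not ranked. The distance from HOXA9 was 0.313 for HOXA10 (rank 577), 0.377 for MEIS1 (rank 921) and 0.518 for PBX3 (rank 1940). Of those ranked, HOXA10 was the nearest to MEIS1, at rank 70 (0.232), while HOXA7 lay at 0.980 from HOXA9 and 0.860 from MEIS1.

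GGACT, the sequence most often seen around m6A, was counted in the longest GENCODE transcript of each gene, m6A itself not being measured here. Over 13339 tested genes the median was 0.912 per kilobase, with quartiles of 0.533 and 1.38. HOXA6 held 3.03 per kilobase, more than 98.5% of the genes, HOXA3 1.47 and HOXA5 1.21. HOXA7 held 0.991, HOXA10 0.787, HOXA4 0.572, HOXA9 0.485 and MEIS1 0.391. PBX3, the gene with the largest fall of the 9 in MOLM-13, held none.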

How the data were processed

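The authors deposited 1 table of TPM for 26830 gene symbols in 8 libraries, with no counts. Its TPM columns each sum to 1000000 within rounding. The submitters' processing notes name STAR and RSEM as tools and GRCh38 as the build. Tool versions, the annotation and the strand option of the counting were not given in the sources used here. Since TPM is a share, a rise in abundant transcripts lowers all other values of a library. Columns were matched to samples by line, hairpin and replicate number, with the column letter E read as the ALKBH5 hairpin.

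Genes reaching 1 TPM in 2 or more libraries (14302) were fitted with limma 3.58.1 (R 4.3.3) on log2(TPM + 1), as 4 group means. Moderation was by empirical Bayes with a trend on mean level, tests were two-sided, and p-values were Benjamini-Hochberg adjusted over every gene fitted. The threshold was 0.05, with 4 residual and 2.29 prior degrees of freedom. Fold changes on this scale understate changes of low genes, and folds in times are ratios of mean TPM. The spread of each gene was pooled over the 4 groups, so its SE is the same in both lines, although the MOLM-13 knockdown pair stood furthest apart. Fitted alone, NOMO-1 gave 9123 called genes in place of 6242, and MOLM-13 gave 1684 in place of 5972. 4 comparisons were made, and each was repeated under the alternatives that applied to it, 18 in all: another pseudocount (0.1), no filter or a filter at 5 TPM, median-of-ratios or quantile scaling, no trend, library weights, each library left out, each line alone, and MOLM-13 with a replicate block. The fit was tried on simulated data in which each gene had the same spread in all groups. That setting did not hold the wider spread of the MOLM-13 knockdown pair, so it does not check the calls there.

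The genes and the 5 gene lists were chosen with earlier results of these data known. The text names every member, ALKBH5, the 3 genes of each list with the smallest p in each line, and the 5 genes most like HOXA9 and MEIS1. FLT3, HBB, HOXA10-HOXA9 and the HOXB and HOXD genes fall outside that rule and were named after their values were seen. Other cell type markers came from set lists, and those named singly were likewise chosen by their values. A few genes are not reported here. Exonic overlaps come from GENCODE release 29, and start-site sequences from RefSeq.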

Additional observations from a re-analysis of the deposited data

Results flagged for a closer look

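The knockdown effect differed between the lines for 8 of the 9 genes by the test of the difference itself (limma, NOMO-1 effect minus MOLM-13 effect, log2 scale, Benjamini-Hochberg adjusted p under 0.05 over 14302 genes). The difference was 1.23 for HOXA3, where NOMO-1 did not pass and MOLM-13 fell. HOXA4 (0.87) and HOXA6 (1.23) rose in NOMO-1 and did not pass in MOLM-13. HOXA5 (1.73) rose in NOMO-1 and fell in MOLM-13. HOXA9 (1.24), HOXA10 (1.63), MEIS1 (1.30) and PBX3 (1.98) fell in MOLM-13 and did not pass in NOMO-1 from TPM as deposited. The same test called 34.6% of all genes tested. After median-of-ratios scaling the differences of these 8 genes were all positive, from 0.49 (HOXA4, adjusted p = 0.096) to 1.51 (PBX3, adjusted p = 0.0017).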

How the results depend on the processing

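The counts of called genes among the 9 depended on single libraries, since each group holds 2. Over the fits that left out 1 library, the count ranged from 1 to 5 in NOMO-1 (4 with all libraries), from 6 to 8 in MOLM-13 (7), from 5 to 8 for the difference (8) and from 4 to 9 between the controls (8). Over the same fits, all genes called ranged from 3490 to 9745 in NOMO-1 (6242), from 2665 to 9439 in MOLM-13 (5972) and from 1635 to 9661 for the difference (4946). Leaving out a library of a pair assumes that the lone one varies like the other groups. With a library weight for each group, 4 of the 9 genes were called in MOLM-13 and 5 for the difference, and 9712 genes in NOMO-1 and 2811 in MOLM-13. Fitted alone, MOLM-13 gave 1684 genes. The log2 change of HOXA10 in NOMO-1 reversed under median-of-ratios scaling, to -0.19 (limma, adjusted p = 0.039). Filters, the trend, library weights, a line fitted alone and libraries left out of the other line cannot alter a log2 change within a line. Only the call could move under those, so a kept direction there was fixed in advance. Of 567 values of single genes under an alternative, 481 kept their direction and their side of the threshold (or were uncalled in both fits), 69 lost their call, 16 gained one and 1 reversed.

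The replicate numbers are shared by both MOLM-13 groups, with a correlation of same-numbered deviations of 0.131. Number 3 is shared by both NOMO-1 groups (0.005). No label ties same-numbered samples together, and so few pairs cannot decide whether they were paired. With a replicate block in MOLM-13 fitted alone, limma called 0 of the 9 genes (adjusted p from 0.067 to 0.55, with 7 lower at an unadjusted p under 0.05) and 184 genes in all. No paired analysis was possible in NOMO-1 because its groups share 1 number. Depth cannot be recovered from TPM, so the precision of low genes such as HOXA4 is unknown.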

Other observations

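HOX genes outside the HOXA cluster gave a list of 28, of which 22 were under 1 TPM in every library and the 6 tested were HOXC genes. In NOMO-1 3 of the 6 rose and none fell, and in MOLM-13 none rose and 1 fell. The split was the same at an unadjusted p under 0.05 in limma, except that 5 were then higher in NOMO-1. Of all genes tested, 28.6% were called higher and 15% lower in NOMO-1, and 10.6% higher and 31.2% lower in MOLM-13. HOXC4 went from 2.15 and 1.93 to 5.80 and 6.35 TPM in NOMO-1 (log2 1.22, adjusted p = 0.00096) and from 7.27 and 7.31 to 1.92 and 1.43 TPM in MOLM-13 (log2 -1.64, adjusted p = 0.00042). The difference between the lines was 2.86 (adjusted p = 0.0014), larger than that of any of the 9 genes. HOXC6 went from 8.06 and 7.62 to 23.6 and 23.1 TPM in NOMO-1 (log2 1.46, adjusted p = 0.0011) and did not pass in MOLM-13 (adjusted p = 0.70). HOXC9 rose in NOMO-1 (log2 0.62, adjusted p = 0.018, or 0.053 after median-of-ratios scaling), and neither HOXC9 (log2 0.16, adjusted p = 0.44) nor HOXC8 (log2 0.11, adjusted p = 0.59) passed in MOLM-13.

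Of the 19 HOXB and HOXD genes, 7 (HOXB4, HOXB7, HOXB8, HOXD8, HOXD9, HOXD10 and HOXD13) were above 0 in MOLM-13 shALKBH5 replicate 3 and at 0 in the other 7 libraries. Their values there were at most 0.44 TPM.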
